A study of Mus musculus with 107 samples.

Results

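The genes of G2 and mitosis encode the machinery that carries a cell from finished DNA replication through chromosome segregation to cytokinesis. A list of 40 of them was followed in mouse ear skin after sulfur mustard. A member was matched to the arrays by its gene symbol and represented by the probe set with the highest mean deposited signal. Of the 40 genes, 39 had such a probe set, among 18194 genes with a probe set of a single symbol in the whole series, and 33 passed the filter on low signal (a mean scaled signal of at least 100), 29 on array A and 4 on array B. The chosen probe sets of the other 6 (Melk, Bub1, Bub1b, Ndc80, Nuf2 and Kif20a) are given by their values only, and Ccnb1 was not analysed here.

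RNA came from ear skin biopsies taken 24 h after exposure and was read on 2 Affymetrix mouse arrays, A and B. In the mustard series, 21 left ears carried methylene chloride, the solvent of mustard (vehicle ears below), and 5 right ears carried 0.08 mg of mustard alone. Right ears of further animals had a drug in ethanol 15 min before the same mustard dose: 6.25 mg of dimercaprol, a dithiol chelator (6 ears), 1.34 mg of indomethacin, a cyclooxygenase inhibitor (6 ears), or octylhomovanillamide, a capsaicin-like compound, labelled as 0.6 mg (5 ears). Animals numbered apart had no mustard and were measured on array A alone: 5 naive ears of 3 animals, 3 left ears with ethanol, and right ears with dimercaprol (4), indomethacin (4) or octylhomovanillamide (5). Strain, sex and age are not given in the sources used here. In pieces of skin, fewer dividing cells and less of these RNAs per cell cannot be told apart.

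As background, cyclin A2 and the B-type cyclins switch on the kinase Cdk1, which starts mitosis. Polo-like and Aurora kinases then build the spindle, the spindle checkpoint holds the anaphase-promoting complex until chromosomes are attached, and a contractile ring divides the cell. The RNAs of most of these genes rise together in G2 and are low in resting cells, so that in skin they come mostly from dividing cells of the basal epidermis and the hair follicle. After DNA damage, p53 raises the inhibitor Cdkn1a, and the DREAM complex of pocket proteins, E2F4 and MuvB proteins then holds many G2 and mitosis promoters silent, chiefly through a short element called the CHR, often beside CCAAT boxes bound by NF-Y. Sulfur mustard alkylates and crosslinks DNA.

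Mitotic genes were lower 24 h after mustard, and the falls reached every stage from G2 entry to cytokinesis. Of 33 members, 20 were lower and 1 was higher in the 5 mustard ears than in the 21 vehicle ears (limma, Benjamini-Hochberg adjusted p under 0.05 over all probe sets of an array). On array A 19 of 29 were lower and 0 higher, where 23.4% of all probe sets were lower and 19.3% higher. On array B Cdca8 was lower and Tpx2 higher, against 13.1% and 12.8% of all its probe sets. The median log2 difference of the 33 members was -0.48, beside -0.01 over all array A probe sets and 0.14 over all array B probe sets. An unadjusted p under 0.05 was reached by 23 members. The labels do not say whether ears were processed separately, so that the tests measure the spread between ears.

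Cyclin B2 (Ccnb2), an activating partner of Cdk1, showed the largest fall. Its scaled signal in the mustard ears was 45.0, 66.0, 14.6, 251 and 41.4 in animals 1, 3, 5, 36 and 37. In the vehicle ears it ran from 200.3 through a median of 286 to 429. Only the ear of animal 36 lay within the vehicle range. The log2 difference was -2.02 ± 0.23 (SE; adjusted p = 3.76e-09), a fall of 75.4%, and -1.44 with a pseudocount of 64 in place of 16. Among its neighbours in the pathway, Ccna2 fell by 0.48 ± 0.11 and the kinase Cdk1 itself by 0.62 ± 0.20 on the log2 scale, while the Cdk1 cofactor Cks2 (-0.21 ± 0.15) and the phosphatase Cdc25c (-0.35 ± 0.31), which activates Cdk1, were not called.

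Mki67, the Ki-67 protein that coats mitotic chromosomes and marks cycling cells, fell by 1.41 ± 0.24 (SE) on the log2 scale (limma adjusted p = 9.09e-06). Its mustard ears stood at 132, 90.9, 214, 475 and 130.4 in the same order of animals, and its vehicle ears from 231 through 524 to 748. The ear of animal 36 again lay inside the vehicle range and the other 4 below it. Top2a, the topoisomerase that untangles sister chromatids, fell by 0.41 ± 0.17 (adjusted p = 0.044), and this call was lost under 8 of the alternatives, among them the omission of mustard ear 3 or ear 37 (adjusted p = 0.284 and 0.246).

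Of 5 kinases and passenger proteins tested, 3 were lower. Birc5 (survivin), a subunit of the chromosomal passenger complex, fell by 0.98 ± 0.29 (SE). Its mustard ears read 157, 172, 299, 467 and 17.3, and its vehicle ears from 226 through 317 to 559, so that 2 mustard ears lay inside the vehicle range. Without the mustard ear of animal 37 the difference was -0.38 (limma adjusted p = 0.219). Cdca8 (borealin), a partner in that complex, fell by 0.49 ± 0.12, and the polo-like kinase Plk1 by 0.39 ± 0.14 (-0.58, adjusted p = 0.0604, with a term for each animal). The kinases of the Aurora family were not called, with Aurka at -0.13 ± 0.15 and Aurkb at -0.18 ± 0.14. Against the left ears of the same animals, Aurka was lower in all 4 mustard pairs (mean -0.52) and Aurkb in 3 of 4 (mean -0.37).

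At the centromere, Cenpa, the histone H3 variant that marks it, fell by 1.19 ± 0.19 (SE; limma adjusted p = 3.35e-06). All 5 mustard ears (92.6, 86.3, 92.2, 132 and 42.2) were below the lowest of the vehicle ears, which ran from 140.2 through 207 to 333. Cenpf, a large kinetochore protein, fell by 0.69 ± 0.17, and Cenpe (-0.38 ± 0.17), Spc25 (0.28 ± 0.16) and Knstrn (0.50 ± 0.22) were not called. Both checkpoint genes tested were lower. The checkpoint kinase Ttk had mustard ears at 267, 261, 199.6, 243 and 233, all below its vehicle ears (286 through 359 to 500.2), and a difference of -0.57 ± 0.11 (limma adjusted p = 5.23e-05). Mad2l1 fell by 0.28 ± 0.12 (adjusted p = 0.0428) and lost its call under 8 alternatives. Cenpa and Ttk were the 2 of 29 array A members with no overlap between mustard and vehicle ears, where 3.99% of all probe sets had none. With each animal given its own term, Ttk stood at -0.41 (adjusted p = 0.0528).

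All 4 cytokinesis genes were lower. Ect2, the exchange factor that activates RhoA at the cell equator, fell by 1.32 ± 0.29 (SE; limma adjusted p = 0.000211). Its mustard ears read 71.6, 4.22, 60.7, 111 and 49.0 and its vehicle ears from 56.2 through 148 to 268, so that the ranges overlapped. Kif23, the kinesin of the centralspindlin complex, fell by 1.10 ± 0.29, with mustard ears at 24.0, 203, 128, 242 and 43.7 and vehicle ears from 135 through 228 to 379. Its partner Racgap1 fell by 0.60 ± 0.14 and the ring scaffold anillin (Anln) by 0.86 ± 0.16. Mean signals of Ect2, Ccnb2 and Cenpa in mustard ears were under 100, so that the size of their folds depends on the pseudocount. With 64, Ect2 stood at -0.84.

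Spindle and anaphase genes were divided. Prc1, which bundles the antiparallel microtubules of the spindle midzone, fell by 1.02 ± 0.17 (SE; limma adjusted p = 4.68e-06). Its mustard ears read 151, 155, 129.6, 347 and 268 against 265 through 453 to 615 in vehicle ears. Of these 5, 3 lay below the vehicle range. The microtubule-binding Nusap1 fell by 0.83 ± 0.16, Ube2c, the ubiquitin-conjugating enzyme of the anaphase-promoting complex, by 0.77 ± 0.17, and Cdca3, a trigger of mitotic entry, by 1.04 ± 0.15. The mustard ears of Cdca3 read 133, 103, 226, 246 and 161 against 239 through 338 to 535. A second Cdca3 probe set on array A was not called (0.23 ± 0.15, limma adjusted p = 0.208). Over the alternatives the log2 difference of Cdca3 ran from -1.39 to -0.40. Cdc20 (-0.26 ± 0.14), the activator of that complex, the motors Kif11 (-0.23 ± 0.15) and Kif2c (0.14 ± 0.14), and Hmmr (-0.25 ± 0.19) were not called.

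Tpx2, which targets Aurora A to the spindle, was higher, and securin (Pttg1), which restrains separase until anaphase, had no clear direction. Pttg1 was at 0.31 ± 0.21 and not called. Its mustard ears read 1119, 1928, 1752, 1103 and 1872 within a wide vehicle range of 543 through 1130 to 2847. A second Pttg1 probe set on array A stood at -0.14 ± 0.14. Against the left ears of the same animals, Pttg1 was lower in 3 of 4 mustard pairs (mean -0.31). Tpx2, read on array B, was higher by 0.61 ± 0.11 (SE; limma adjusted p = 5.38e-05), with mustard ears at 1569, 1557, 2070, 1426 and 2430 against 896 through 1174 to 1593. The ears of animals 5 and 37 lay above every vehicle ear. Over all array B probe sets the median difference was 0.14. Another Tpx2 probe set on array B was higher (0.43 ± 0.10) and one on array A was not called (-0.23 ± 0.15). Without rescaling of the arrays the chosen Tpx2 probe set stood at 0.06 (adjusted p = 0.769).

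Other probe sets of a member did not always move with the chosen one. Of 18 members with several kept probe sets, 8 had all of them on one side of 0 and 10 had both signs. For Cenpa a second probe set on array B was higher (0.44 ± 0.17, limma adjusted p = 0.0424), and for Cenpf a second on array A was higher (0.32 ± 0.13, adjusted p = 0.0385). For Knstrn, whose chosen probe set was at 0.50, 2 others on array B were lower (-1.07 ± 0.31 and -0.71 ± 0.20). Kif11 and Kif2c, not called by their chosen probe sets, each had another on array A that was lower (-0.65 ± 0.19, adjusted p = 0.00534, and -0.87 ± 0.17, adjusted p = 4.19e-05), and 2 further ones of Kif2c were not called. Bub1b, whose chosen probe set was too dim to test, had one on array B that was lower by 2.24 ± 0.40. Its other kept probe set on array B was not called (0.145 ± 0.387, adjusted p = 0.811). Which transcripts these probe sets detect was not tested.

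The chosen probe sets of the 6 dim members are described without a test. The kinase Melk read 66.0 ± 30.1 (SD) in 21 vehicle ears and 20.1 ± 26.2 in 5 mustard ears. The kinetochore gene Nuf2 read 108 ± 36.0 and 33.6 ± 34.1, and the checkpoint kinase gene Bub1b 129 ± 58.5 and 54.8 ± 39.8. Kif20a, a motor of the midzone, read 98.5 ± 20.9 and 49.6 ± 30.2. Bub1 and Ndc80 were lower in the mean as well, with standard deviations close to the differences. With no filter 22 of 39 members were lower and 1 higher.

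**Figure D1:**
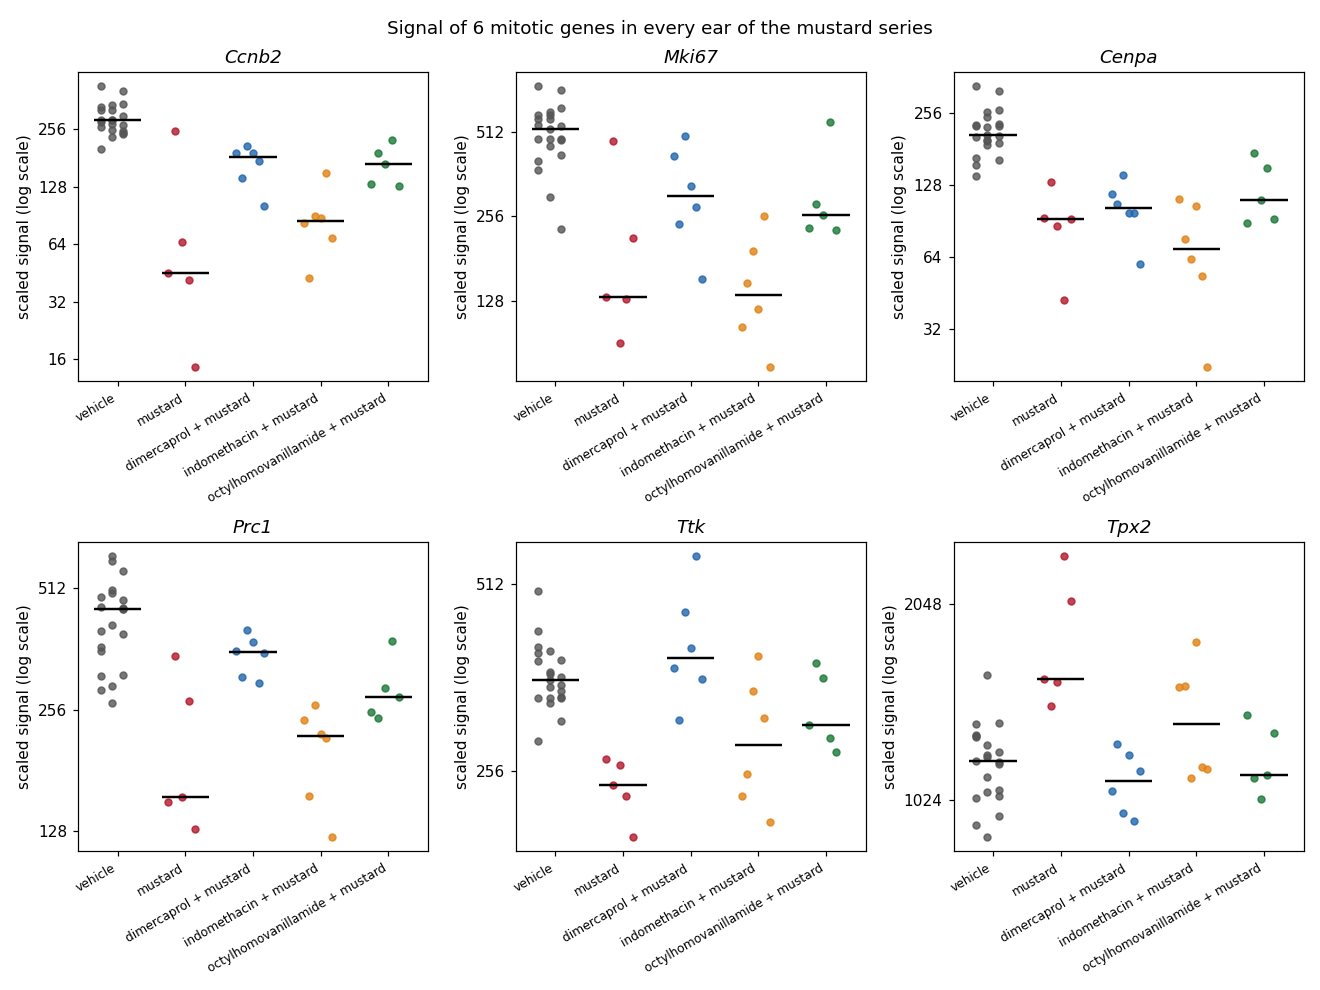
Scaled signal (log scale) of 6 mitotic genes in each ear of the mustard series, by treatment; each point is an ear and each bar a median. In the mustard group the ear of animal 36 (251 for Ccnb2, 475 for Mki67) stands near the vehicle ears, and Tpx2 is the gene that was higher.

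Mustard ear 36 stood apart from the other 4. It was the highest of the 5 mustard ears for 17 of the 20 members that were lower. Averaged over the 29 array A members, its log2 deviation from the mean of the vehicle ears was -0.09, whereas the other 4 mustard ears lay between -0.58 and -0.86 and the vehicle ears between -0.34 and 0.44. The mustard ears of animals 5 and 37 were dim (trimmed mean signals of 85.7 and 66.3, in a range of 66.3 to 267 over array A) and had 3' over 5' Gapdh signal ratios, a sign of RNA integrity, of 0.63 and 0.78 on the log2 scale, beside -0.25 to 0.24 in vehicle ears. Without those 2 ears 16 members were called, and with any single mustard ear left out 18 to 22. Of the 20 lower members, 11 kept their call under every alternative that tested them (Anln, Ccna2, Ccnb2, Cdca3, Cenpa, Ect2, Mki67, Nusap1, Prc1, Racgap1 and Ube2c). The alternative that averaged a gene's probe sets took only those on the array of the chosen one. The Cenpa probe sets on array B therefore did not enter it.

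The promoters of these genes share short elements, and those of the 5 members with the largest called falls are printed to show them. RefSeq windows (build GRCm38.p6) from 250 bases before to 50 after the start were matched for 34 of the 40 genes. The CHR core (TTTGAA or TTCGAA, either strand) was found in 25 of the 34 windows (73.5%), and in 19.4% of all 27025 gene windows of that length. A CCAAT box (either strand) was found in 24 (70.6%, against 37.9%), at least 2 of them in 17 (50%, against 12.2%), and both elements in 22 (64.7%, against 7.7%). The E2F-type letters TTCCCGC were found in 0 of 34 (0%) and in 4.66% of all windows. Of the 19 lower members with a window, 16 held a CHR core. Each line below gives the 120 bases before the start, 5′ to 3′ along the gene's strand, with CHR cores and CCAAT boxes (ATTGG where reversed) in capitals. The regions are chr9:70421555-70421674 (Ccnb2, minus strand), chr7:135716380-135716499 (Mki67, minus), chr3:27153879-27153998 (Ect2, minus), chr5:30666766-30666885 (Cenpa, plus) and chr9:61946800-61946919 (Kif23, minus).
Ccnb2: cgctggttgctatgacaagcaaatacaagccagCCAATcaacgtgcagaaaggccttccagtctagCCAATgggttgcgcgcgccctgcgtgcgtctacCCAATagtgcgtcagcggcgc
Mki67: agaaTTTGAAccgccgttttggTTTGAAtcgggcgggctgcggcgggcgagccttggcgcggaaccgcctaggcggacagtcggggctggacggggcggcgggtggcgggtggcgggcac
Ect2: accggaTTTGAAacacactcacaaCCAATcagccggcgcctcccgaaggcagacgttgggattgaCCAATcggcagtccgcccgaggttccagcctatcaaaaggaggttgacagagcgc
Cenpa: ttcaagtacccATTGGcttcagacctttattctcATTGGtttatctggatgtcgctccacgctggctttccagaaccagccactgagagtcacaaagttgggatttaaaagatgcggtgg
Kif23: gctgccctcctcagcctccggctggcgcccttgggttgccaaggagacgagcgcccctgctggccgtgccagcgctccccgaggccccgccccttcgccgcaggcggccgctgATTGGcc

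Ccnb2 shows 3 CCAAT boxes in that stretch, beginning 87, 54 and 21 bases before the start. Mki67 shows 2 CHR cores, and Ect2 a CHR core followed by 2 CCAAT boxes. Cenpa has 2 reversed CCAAT boxes and Kif23 has 1. Outside the printed stretch, Ccnb2 has a CHR core upstream (position -167 from the start) and one that begins 4 bases past the start, and those of Cenpa and Kif23 begin 16 and 2 bases past it. These matches describe letters in reference sequence, and binding was not measured.

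Genes that work around the members moved in both directions after mustard. Of all probe sets, 23.4% were lower and 19.3% higher on array A, and 13.1% and 12.8% on array B. Among 18 genes of the G2 checkpoint and p53 arrest, 9 were higher and 3 lower (median log2 difference 0.51): the kinase Plk2 rose by 2.37 ± 0.18 (SE), the p53 inhibitor Mdm2 by 1.95 ± 0.19, the kinase inhibitor Cdkn1a by 1.92 ± 0.14 and cyclin G1 (Ccng1) by 1.92 ± 0.14 (limma adjusted p = 1.06e-13 for Cdkn1a). Among 18 cohesin and condensin genes, 11 were lower and 1 higher, with the cohesin subunits Stag1 (-1.40 ± 0.13) and Stag2 (-0.62 ± 0.10), the shugoshin Sgo2a (-1.86 ± 0.30), which protects centromeric cohesion, and the condensin subunit Ncapg2 (-0.90 ± 0.18). Of 22 further mitotic genes, 6 were lower, including the motors Kif22 (-0.97 ± 0.21) and Kif4 (-0.53 ± 0.11), and 4 were higher, including the checkpoint gene Bub3 (0.56 ± 0.11) and Ckap2 (0.67 ± 0.13).

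Replication genes were split, with 10 of 31 lower and 4 higher (median -0.17): the polymerase subunit Pola1 stood at -1.40 ± 0.21 (SE) and the clamp loader subunit Rfc3 at -1.15 ± 0.24, while cyclin D1 (Ccnd1) was at 0.99 ± 0.11 and the ribonucleotide reductase subunit Rrm2 at 0.88 ± 0.12. Of 18 transcriptional regulators of mitotic genes, 6 were lower, among them the CHR-binding MuvB subunit Lin54 (adjusted p = 1.2e-07), the pocket protein Rbl2 (-0.93 ± 0.13) and the E2F partner Tfdp2 (-0.54 ± 0.10), and 2 were higher, one being the repressor E2f7 (0.85 ± 0.17). Of 14 core genes of the anaphase-promoting complex and its regulators, 2 were lower, Anapc10 (-0.53 ± 0.13) and the inhibitor Fbxo5 (-0.84 ± 0.23), and 1 was higher, Anapc7 (0.22 ± 0.09). Beside these counts, 23.4% of all array A probe sets were lower and 19.3% higher (13.1% and 12.8% on array B). The counts of the further mitotic genes and of the core anaphase-promoting complex genes were near or below the array A shares. So was the count of higher replication genes.

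**Figure D2:**
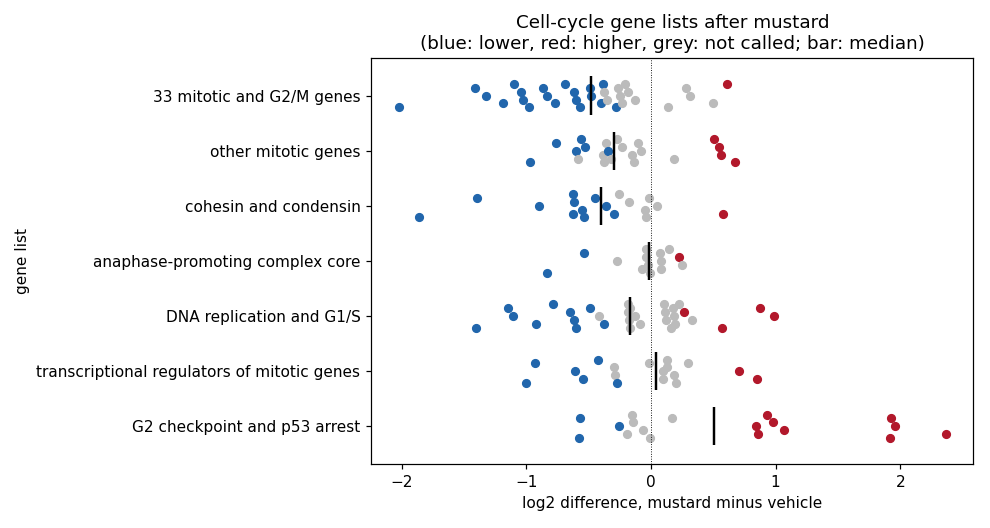
Log2 difference of mustard minus vehicle ears for each tested gene of 7 cell-cycle lists; blue points were lower, red higher and grey not called, and bars are medians. The 33 members centre at -0.48 and the p53 arrest list at 0.51.

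Markers of the cells that divide in skin did not move one way. Of 7 basal keratinocyte markers 3 were lower and 2 higher, and their summed scaled signal ran from 48060 through 60880 to 73180 in vehicle ears and from 40420 through 56750 to 63420 in mustard ears. From vehicle to mustard ears the mean was lower for Krt15 (13500 and 6195), Col17a1 (7753 and 4449) and Trp63 (2645 and 1417). It was also lower for Itga6 (2673 and 2210) and Krt5 (15870 and 15320). Krt14 (18170 and 24400) and Itgb4 (901 and 1115) had higher means. Of 7 hair matrix and follicle markers 2 were lower and 1 higher, with sums (5 genes on array A) of 695 through 1082 to 3073 and 562 through 812 to 2746. Neutrophil markers summed to 331 through 519.9 to 665 in vehicle ears and 585 through 961 to 1227 in mustard ears, and in the pretreated ears 428 through 568 to 761 (dimercaprol), 550 through 869 to 1173 (indomethacin) and 478 through 548 to 683 (octylhomovanillamide). The animals numbered apart, without mustard, had medians of 986 (naive), 1071 (ethanol), 1074 (dimercaprol), 952 (indomethacin) and 887 (octylhomovanillamide). The vehicle ears were thus low beside other ears without mustard. Of 7 neutrophil markers listed, 3 were tested and 2 of these were higher after mustard. The means of Camp (34.8 and 20.8) and Mmp8 (104 and 97.7) did not rise from vehicle to mustard ears. Of 4 T cell markers 1 was lower. No marker was at 0 on any array, and the part of these cells in the falls of mitotic genes was not tested.

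The largest number of members below the vehicle ears was in ears given indomethacin before mustard. These comparisons share the 21 vehicle ears with the one above. The labels give vehicle ears no ethanol, so that each difference also includes the drug and its ethanol. Against the vehicle ears, 25 of 33 members were lower and 0 higher: 22 of 29 on array A, where 19.6% of all probe sets were lower, and 3 of 4 on array B, where 7.07% were. The median difference was -0.65, beside -0.03 over all array A probe sets and 0.04 over all array B probe sets. All 5 cyclin and Cdk1 genes, all 4 cytokinesis genes, both checkpoint genes and both chromosome genes were lower. Mki67 fell by 1.73 ± 0.23 (SE; limma adjusted p = 9.85e-08), with the 6 ears at 74.3 through 134 to 256, 1 of them inside the vehicle range. Ccnb2 fell by 1.63 ± 0.21, with ears at 42.8 through 84.7 to 150.1, all below the vehicle ears. Cenpa fell by 1.49 ± 0.18 (22.0 through 69.2 to 112), and like Plk1, Cenpf and Prc1 it had no ear within the vehicle range. The share of all probe sets without overlap was not counted for this comparison. With each animal given its own term, which rests on the 17 animals with both ears measured, 12 members were called.

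Fewer members were called below the vehicle ears after dimercaprol or octylhomovanillamide. After dimercaprol 6 of 33 were lower and 0 higher, all on array A, where 1.23% of probe sets were lower: Cenpa (-0.97 ± 0.18 (SE), limma adjusted p = 0.000567), Cenpf (-0.81 ± 0.16), Ccnb2 (-0.76 ± 0.21), Cdc20 (-0.64 ± 0.13), Plk1 (-0.48 ± 0.13) and Cks2 (-0.47 ± 0.14). After octylhomovanillamide 4 were lower, Cenpa (-0.76 ± 0.19), Cenpf (-0.67 ± 0.17), Plk1 (-0.56 ± 0.14) and Racgap1 (-0.53 ± 0.14), where 0.947% of array A probe sets were. By their chosen probe sets, the kinetochore genes Cenpa and Cenpf and the kinase Plk1 were thus lower than vehicle in all 4 groups that had mustard. For mustard alone, a second probe set of Cenpa (0.44, array B) and one of Cenpf (0.32, array A) were higher. In the pretreated groups the drug's ethanol is part of the difference from vehicle ears, and its share was not tested. Most of the other members leaned the same way without a call: 32 and 29 of 33 differences were negative, with medians of -0.30 and -0.39 beside -0.01 and 0 over all array A probe sets. Without the octylhomovanillamide ear of animal 33, 8 members were called in that group, and without the ear of animal 27 or 29, 1 was. With each animal given its own term, a fit that rests on fewer ears, 0 members were called in either comparison. The dimercaprol differences were then -0.97 for Cenpa, -0.85 for Cenpf, -0.80 for Ccnb2, -0.85 for Cdc20, -0.41 for Plk1 and -0.59 for Cks2. Those for octylhomovanillamide were -0.61 for Cenpa, -0.41 for Cenpf, -0.51 for Plk1 and -0.38 for Racgap1. Without rescaling 0 members were called as well.

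**Figure D3:**
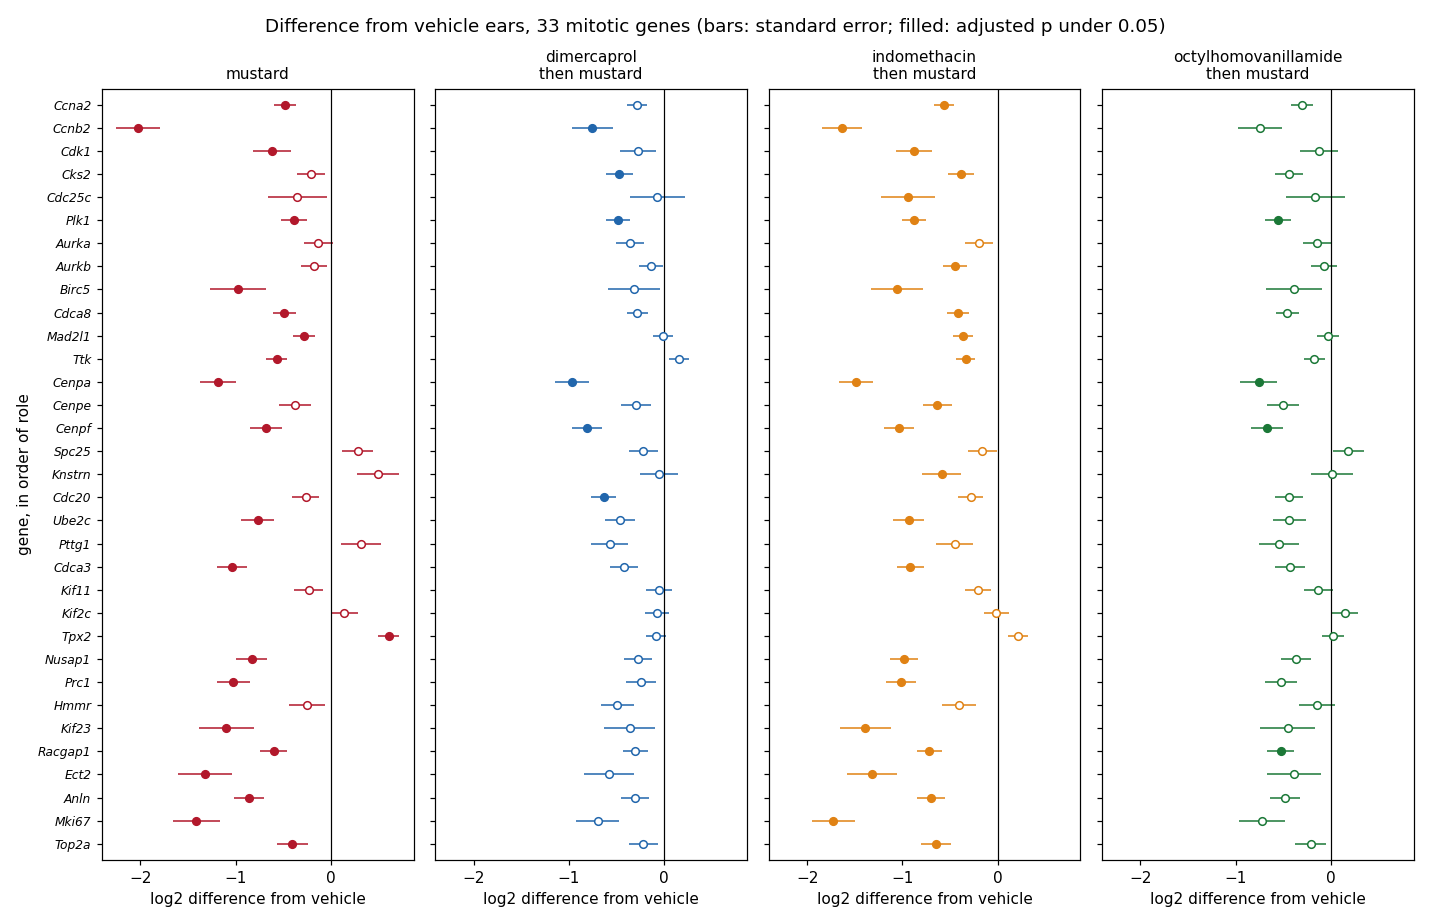
Log2 difference from vehicle ears (x axis) of the 33 tested members in order of role, with its standard error, in 4 panels by treatment; filled points were called. The mustard and indomethacin panels hold 21 and 25 filled points, and the dimercaprol and octylhomovanillamide panels 6 and 4.

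Set directly against mustard alone, dimercaprol-pretreated ears had 6 of 29 array A members higher and 1 lower, and Tpx2 lower on array B. The array A shares were near or below those of all probe sets (15.6% higher and 11.2% lower). The labels give mustard-only ears no pretreatment, and each difference therefore includes the drug's ethanol. Ccnb2 was higher by 1.27 ± 0.28 (SE; limma adjusted p = 0.000738), with the 6 dimercaprol ears at 101 through 183 to 209, and Ttk by 0.72 ± 0.13, with ears at 309 through 389 to 569 that all lay above the mustard ears. Prc1 (0.78 ± 0.21), Cdca3 (0.62 ± 0.19), Nusap1 (0.56 ± 0.19) and Anln (0.55 ± 0.19) were also higher. Pttg1 was lower by 0.89 ± 0.26, with ears at 613 through 866 to 897, all below the mustard ears. A second Pttg1 probe set on array A stood at -0.08 (adjusted p = 0.765), and one of Cdca3 at -0.38 (adjusted p = 0.115). Other array A probe sets were called lower for Cdc20 (-0.94 ± 0.16, adjusted p = 6.7e-05) and Cenpf (-0.52 ± 0.15, adjusted p = 0.0102). Others were called higher for Kif11 (0.65 ± 0.23, adjusted p = 0.0341) and Prc1 (0.80 ± 0.21). The chosen probe sets of Cdc20, Cenpf and Kif11 were not called here. On array B, where 7.09% were lower and the median of all was -0.14, Tpx2 was lower by 0.70 ± 0.14. Its ears stood at 949 through 1094.5 to 1246, again with no overlap. How many of all probe sets lacked overlap between these ears was not counted.

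Octylhomovanillamide ears had 3 of 29 array A members higher and 1 lower than the same mustard ears, shares close to or below those of all probe sets (10.5% and 6.61%), and Tpx2 lower on array B. Ccnb2 was higher by 1.28 ± 0.29 (SE; limma adjusted p = 0.00297; ears at 132, 168, 129, 192 and 225), Cdca3 by 0.61 ± 0.20 and Ttk by 0.39 ± 0.14. Pttg1 was lower by 0.85 ± 0.27, while its second probe set stood at 0.01 (adjusted p = 0.971). Tpx2 was lower by 0.58 ± 0.14, where 3% of array B probe sets were and the median of all was -0.09. Indomethacin gave 1 member lower, the kinetochore gene Knstrn (-1.08 ± 0.27, adjusted p = 0.0357), whose 6 ears (26.7 through 68.6 to 102) lay below the mustard ears (122 through 148 to 189.6), where 0.652% of array A probe sets were lower. The share of all probe sets without overlap was not counted here. This call was lost under 9 of 17 alternatives. It rests on the probe set at 0.50 for mustard against vehicle, where 2 others on array B were lower (-1.07 and -0.71).

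These comparisons turned on the few mustard ears. All 3 share the 5 mustard ears, whose trimmed mean signals of 66.3 to 137 were below those of the dimercaprol (149 to 267), indomethacin (128 to 210) and octylhomovanillamide ears (120 to 212). With brightness as a covariate 2 members were called for dimercaprol, 0 for indomethacin and 0 for octylhomovanillamide. Without the ears of animals 5 and 37, 3 members were called for dimercaprol and 0 for the other drugs. Without the ear of animal 36 the counts were 12 for dimercaprol, 11 for octylhomovanillamide and 4 for indomethacin, and without the ear of animal 37 they were 7, 1 and 0. With each animal given its own term (17 animals) they were 0 for each drug, at differences for dimercaprol of 1.03 for Ccnb2, 0.96 for Cdca3, 0.64 for Prc1 and 0.58 for Ttk, and for octylhomovanillamide of 1.19 for Ccnb2 and 1.16 for Cdca3. Pttg1 then stood at -0.13 and -0.04, and Tpx2 at -0.68 and -0.53. Without rescaling, where the median of all array A probe sets was 0.76 for dimercaprol and 0.63 for octylhomovanillamide, 26 and 24 members were called, all higher, with member medians of 0.73 and 0.64. In that setting Pttg1 after dimercaprol stood at 0.02 (limma adjusted p = 0.95) and Tpx2 after octylhomovanillamide at 0.01 (adjusted p = 0.965).

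The drugs were also set against each other in mustard-exposed ears, 3 pairs in all at differing doses. Dimercaprol ears exceeded indomethacin ears in 6 of 33 members, where 6.06% of array A probe sets were higher: Kif23 by 1.03 ± 0.34 (SE; limma adjusted p = 0.0399), Mki67 by 1.03 ± 0.28, Ccnb2 by 0.88 ± 0.27, Prc1 by 0.77 ± 0.20, Nusap1 by 0.71 ± 0.19 and Ttk by 0.49 ± 0.13. The 6 dimercaprol ears read 154 through 304 to 496 for Mki67 and 299 through 356 to 404 for Prc1, and those of Prc1 all lay above the indomethacin ears (123 through 219.7 to 263). Nusap1 had no overlap either, and the share of all probe sets with none was not counted for this pair. Octylhomovanillamide against indomethacin called 0 members (15 at an unadjusted p under 0.05, lowest adjusted p 0.0565), where 2.07% of probe sets were called. Dimercaprol against octylhomovanillamide called 0 (1 at an unadjusted p under 0.05), where 0% were. The 95% interval of that last difference ran from -0.57 to 0.55 on the log2 scale for Ccnb2 and from -0.58 to 0.62 for Mki67.

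Ears of the same animal give a further view, since each right ear can be set against its own left ear. In drug animals the right ear also had the drug's ethanol. In the 4 mustard animals with both ears measured, 17 of 29 array A members were lower in every right ear and 1 was higher, where 14.2% and 13.5% of all probe sets were. In 4 dimercaprol animals the counts were 19 and 0, beside 14.3% and 13.3%. In 4 indomethacin animals they were 20 and 0, beside 20.8% and 19.5%. In 5 octylhomovanillamide animals, where a gene had to hold its sign in 1 more pair, they were 7 and 0, beside 7.9% and 6.34%. For Ccnb2 the mean right-minus-left difference was -1.82 (from -2.87 to -0.38) in mustard animals, -0.80 (-0.89 to -0.71) in dimercaprol animals, -1.63 (-2.18 to -1.03) in indomethacin animals and -0.63 (-1.06 to -0.10) in octylhomovanillamide animals. Every one of these 17 pairs was lower on the right. The median member of animal 36 differed by -0.10, beside -0.94, -0.95 and -0.54 in animals 1, 3 and 37.

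The left ears of the 4 sets of animals had no called difference in these genes. Averaged over the 29 array A members, left ears lay at 0.19 ± 0.19 (SD, 4 ears) in mustard animals and 0.10 ± 0.10 (4) in dimercaprol animals, and at -0.19 ± 0.18 (4) in indomethacin animals and -0.16 ± 0.08 (5) in octylhomovanillamide animals. A limma F-test over the 4 sets called 0 of 29 members (12 at an unadjusted p under 0.05, lowest adjusted p 0.358), and 0.0376% of all probe sets. Right minus left, the average was -0.76 ± 0.47 after mustard, -0.41 ± 0.09 after dimercaprol, -0.62 ± 0.19 after indomethacin and -0.18 ± 0.17 after octylhomovanillamide. Within animals, the 6 differences between dimercaprol and indomethacin ears were 0.83 for Ccnb2, 0.54 for Ttk, 0.89 for Mki67, 0.60 for Prc1, 0.43 for Nusap1 and 0.41 for Kif23. None was called in that fit, which rests on 4 pairs a set (limma adjusted p from 0.236 for Ttk to 0.808 for Kif23). The values of Ccnb2, Ttk, Mki67 and Prc1 were near those over all ears, and those of Nusap1 and Kif23 were smaller. The 3 drug sets carry separate ranges of animal numbers in the labels, and mustard animals (1, 3, 5, 36 and 37) lie on both sides of them.

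**Figure D4:**
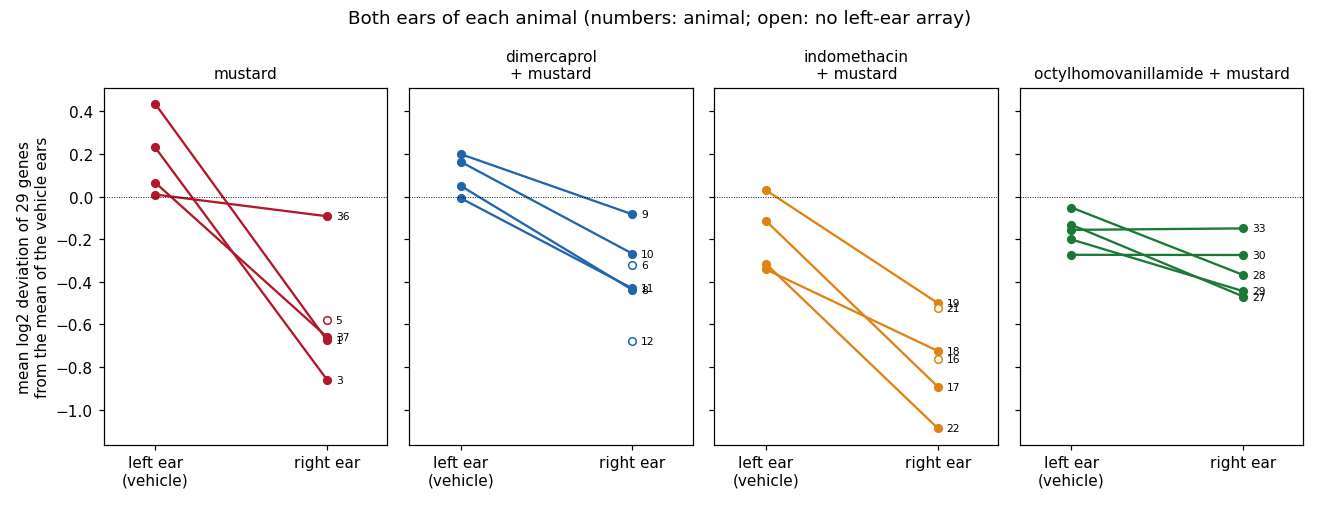
Mean log2 deviation of 29 mitotic genes from the vehicle mean, in the left and right ear of each animal joined by a line, in 4 panels by the treatment of the right ear; open points had no left-ear array. The lines fall in every panel, except those of animals 30 and 33, which are level, and that of animal 36 falls by little (-0.10).

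In ears without mustard no member was called for a drug. Against the 3 ethanol ears, dimercaprol had 27 of 29 members at a positive difference (median 0.41, 10 at an unadjusted p under 0.05), indomethacin 24 (0.26, 3) and octylhomovanillamide 24 (0.37, 6), with 0 called by limma in each, where 0% of all probe sets were called. The ethanol ears were themselves low against naive skin in 25 of 29 members (median -0.30, 3 at an unadjusted p under 0.05, 0 called, against 0% of all). For Mki67 the ethanol ears read 211, 201 and 243, the naive ears 345 through 389 to 421, and the dimercaprol ears 312, 609, 356 and 432. The ethanol ears lay below every naive and dimercaprol ear in this gene, and the share of all probe sets that did so was not counted. The drug-only groups averaged 0.21 ± 0.16 (SD, 4 dimercaprol ears), -0.02 ± 0.19 (4 indomethacin ears) and 0.08 ± 0.33 (5 octylhomovanillamide ears) over the 29 members, with the ear of animal 520 highest (0.60). The 3 ethanol ears were left ears of animals 507, 515 and 520, whose right ears are among the drug ears.

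Few members were called between methylene chloride and naive ears. Of 29 members, 2 were lower in methylene chloride ears than in naive ears and 0 higher, where 14.1% of array A probe sets were lower. The differences ran from -0.69 to 0.81 on the log2 scale, 19 negative and 10 positive, with 5 at an unadjusted limma p under 0.05. Kif2c, a microtubule-depolymerizing kinesin, was lower by 0.69 ± 0.18 (SE; limma adjusted p = 0.00419; 112 through 229 to 305 against 254 through 342 to 551), and Ccna2 by 0.42 ± 0.14 (adjusted p = 0.0271). Both ranges overlapped, and both calls were lost without rescaling. Vehicle and naive ears came from sets of animals numbered apart, so that set and treatment cannot be told apart here.

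**Figure D5:**
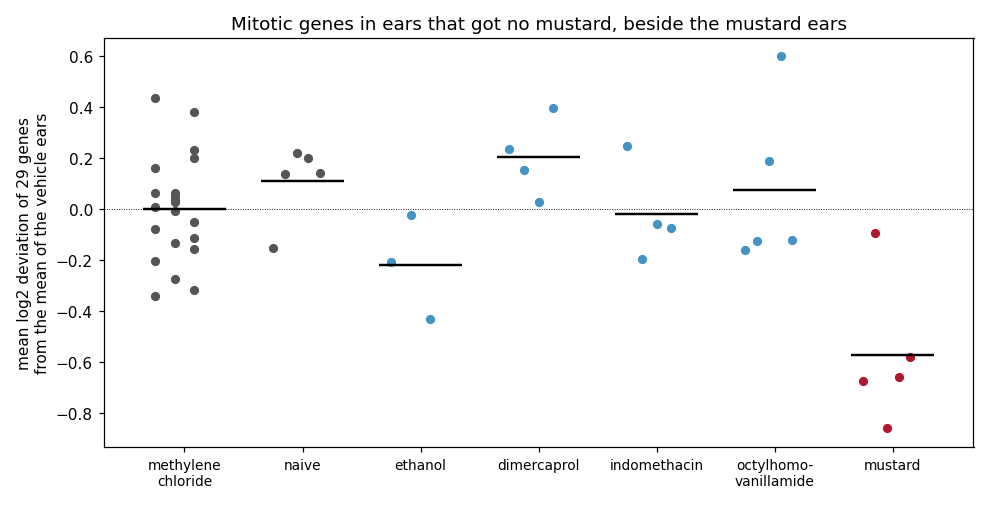
Mean log2 deviation of 29 mitotic genes from the vehicle mean in each ear without mustard, by group, beside the 5 mustard ears; bars are means. Groups without mustard average between -0.22 (ethanol) and 0.21 (dimercaprol), and the mustard ears average -0.57.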

How the data were processed

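The deposited values are MAS5 signal intensities per probe set on a linear scale, which the authors made from their Affymetrix scans, per the submitters' processing notes (the version and scaling target are not given in the sources used here). Brightness differed between arrays, with trimmed means from 66.3 to 267 on array A (64 arrays) and from 18.7 to 51.7 on array B (43 arrays). Each array was therefore scaled to a trimmed mean of 500 (2% trimmed per tail), a pseudocount of 16 was added and log2 taken. Probe sets with a mean scaled signal under 100 were left out, which kept 15953 on array A and 17287 on array B.

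Groups were compared with limma 3.58.1 (lmFit, eBayes with trend; R 4.3.3, version 1.17.8 of data.table), tested on simulated data, with Benjamini-Hochberg adjustment over the probe sets of an array and a threshold of 0.05. A fold is on the log2(signal + 16) scale and understates changes of dim genes. The mustard series was fitted on each array, the animals without mustard apart, with naive ears averaged per animal, and methylene chloride against naive over all array A ears. The number of arrays limits the precision.

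Both ears of 17 animals were measured in the mustard series. Deviations from group means of the same animal's ears correlated at 0.164 on average (-0.094 to 0.439), against -0.0269 for different animals. The pairing comes from the labels' animal numbers.

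The members and gene lists were chosen with earlier results of these data known. Any member could be named by its role. Single ears are given for the 8 called members with the largest fold after mustard, members that moved against the others and those called in a drug comparison, and up to 4 genes of each other list with the smallest adjusted p. The F-test of left ears, the shares of all probe sets for non-overlap and for sign in every pair, and the choice of printed promoters were added after the data were seen. The share for non-overlap was counted for mustard against vehicle ears on array A only. Alternatives tried were no rescaling, quantile normalization, a pseudocount of 64, a minimum of 300 or none, eBayes with no trend, a replicate block for the animal (random, or fixed with a term for each animal), the Gapdh 3' to 5' ratio or brightness as a covariate, the mean over a gene's kept probe sets on the same array, and leaving out ears.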

Additional observations from a re-analysis of the deposited data

Results flagged for a closer look

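In 17 of 219 gene-and-group sets of 4 to 10 ears, the highest or lowest ear lay apart from the rest by Dixon's criterion. Chance gives this in about 1 in 20 groups. All values are scaled signals.

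The octylhomovanillamide-then-mustard ear of animal 33 stood apart in 5 members. It was high for Ccna2 (500, others 361 to 381), Nusap1 (398, others 240 to 273) and Mki67 (554, others 228 to 285). It was low for Cks2 (396, others 540 to 601) and Kif11 (83.6, others 110 to 118). In the same group Plk1 was high in the ear of animal 29 (179, others 123 to 126).

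Among other mustard-exposed ears, Aurka was low in the mustard ear of animal 3 (107, others 159 to 182). The dimercaprol ear of animal 12 was low for Aurkb (116, others 179 to 228) and Kif23 (97.8, others 176 to 236). The indomethacin ear of animal 22 was low for Cenpf (71.5, others 126 to 166) and Ect2 (3.91, others 56.4 to 82.3).

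Among ears without mustard, the indomethacin ear of animal 511 was high for Ccna2 (785, others 528 to 553) and Ube2c (438, others 264 to 286), and that of animal 515 was low for Ect2 (16.8, others 97.5 to 122). The dimercaprol ear of animal 508 was low for Cdca3 (334, others 431 to 453) and high for Kif11 (208, others 173 to 175). The octylhomovanillamide ear of animal 520 was high for Plk1 (352, others 204 to 237).

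In mustard-exposed skin, 6 members differed between dimercaprol and indomethacin pretreatment by the limma test of that difference (adjusted p from 0.0101 to 0.0399). The log2 differences were 0.878 for Ccnb2, 0.491 for Ttk, 0.708 for Nusap1, 0.767 for Prc1, 1.029 for Kif23 and 1.028 for Mki67. With a term for each animal, which rests on 4 pairs a set, none of the 6 was called, at 0.831 for Ccnb2, 0.542 for Ttk, 0.434 for Nusap1, 0.605 for Prc1, 0.412 for Kif23 and 0.886 for Mki67.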

How the results depend on the processing

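Of 250 counts of called members recomputed under an alternative, 205 were within 1.5 times the reported count. Of 1203 results of single members, 1025 kept direction and call, 176 lost the call and 2 turned direction, both without rescaling (Pttg1, dimercaprol then mustard against mustard, 0.017; Tpx2, octylhomovanillamide then mustard against mustard, 0.013). For mustard against vehicle the count was 13 (17 tested) with a minimum of 300 and 16 without the mustard ears of animals 5 and 37, and 18 to 22 with single ears left out. Against mustard alone, dimercaprol called 26 members without rescaling, 2 with brightness as a covariate, 3 without ears 5 and 37, 0 with the fixed block, and 6 to 12 with single ears left out. Indomethacin called 0 with quantile normalization, a minimum of 300, the fixed block, either covariate, or without ears 5 and 37, and 0 to 4 with single ears left out. Octylhomovanillamide called 24 without rescaling, 0 with the fixed block, either covariate or without ears 5 and 37, and 1 to 11 with single ears left out. Against vehicle, dimercaprol then mustard called 0 without rescaling or with the fixed block and 2 with a minimum of 300. Indomethacin then mustard called 14 with a minimum of 300 and 12 with the fixed block. Octylhomovanillamide then mustard called 0 without rescaling or with the fixed block, 1 with a minimum of 300, and 1 to 8 with single ears left out. Dimercaprol against indomethacin in mustard-exposed ears called 14 without rescaling and 0 with the fixed block. Octylhomovanillamide against indomethacin called 1 with a minimum of 300 or without ears 5 and 37, and 0 to 1 with single ears left out. Methylene chloride against naive called 0 without rescaling, 1 with a minimum of 300, and 2 to 3 with single ears left out. Causes were not tested, except that a minimum of 300 tests fewer members and the fixed block rests on 17 animals. When arrays were not rescaled, all array A probe sets had a median of -0.52 for mustard against vehicle, where the median member stood at -0.91 and 28 members were lower. The chosen probe sets of the 6 members under a mean signal of 100 are too dim to test.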

Other observations

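Among the 21 vehicle ears alone, mitotic genes varied more than most. The SD of log2 signal had a median of 0.304 over the 29 array A members, beside 0.257 over all kept array A probe sets, and 22 of the 29 lay above the latter. As a description over 21 ears that were scaled the same way, each member's correlation with the mean of the others had a median of 0.683, from -0.538 for the checkpoint kinase Ttk to 0.888 for Ccna2. Over the same ears the 15910 other kept probe sets correlated with the mean of the members at a median of 0.03, and 0.471% of them reached 0.683. Securin (Pttg1) had an SD of 0.543 and a 5.12-fold range between vehicle ears.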
